A study of Mus musculus with 6 samples.

Results

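Clusterin (Clu) and apolipoprotein E (Apoe) are 2 of the 632 genes of an expression table from mouse prostate epithelium, chosen by symbol as secreted apolipoproteins that stand high in the table. They were picked with their levels and their difference between the groups in view. Their values are therefore given as a description, with no test. The cells were prostate epithelium isolated by flow sorting from C57BL/6 mice aged 3 months. There were 3 libraries of the E-cadherin conditional knockout and 3 of control littermates, all kept under normal conditions. E-cadherin holds epithelial cells to each other. The promoter that drove the deletion, the sorting marker and the number of animals behind a library are not known from the labels. The p-values below therefore reflect how far these libraries scatter, for technical reasons as well as biological ones.

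Clusterin, also called apolipoprotein J, is a secreted chaperone that binds misfolded extracellular proteins, travels on high-density lipoprotein and inhibits the terminal complement complex. In the rat prostate its transcript is known for becoming abundant when the gland regresses after castration. Apolipoprotein E coats lipoprotein particles and brings their lipids to lipoprotein receptors on cells. Hepatocytes, macrophages and astrocytes are its best-known sources, and in macrophages its gene is a target of the sterol-sensing liver X receptors.

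Clu (ENSMUSG00000022037) is a protein-coding gene on the plus strand of chromosome 14, from 65968483 to 65981547 in GRCm38, and its principal transcript has 9 exons and 1810 bases. Apoe (ENSMUSG00000002985) is a protein-coding gene on the minus strand of chromosome 7, from 19696109 to 19699188. Among RefSeq promoter windows, which run from 250 bases before a gene's start to 50 after it, 1 of the 2 genes matched. The Apoe window (chr7:19699139-19699438, minus strand, GRCm38.p6) is shown because it holds the start that GENCODE gives the gene, with capitals marking the motifs found in it.
Apoe promoter: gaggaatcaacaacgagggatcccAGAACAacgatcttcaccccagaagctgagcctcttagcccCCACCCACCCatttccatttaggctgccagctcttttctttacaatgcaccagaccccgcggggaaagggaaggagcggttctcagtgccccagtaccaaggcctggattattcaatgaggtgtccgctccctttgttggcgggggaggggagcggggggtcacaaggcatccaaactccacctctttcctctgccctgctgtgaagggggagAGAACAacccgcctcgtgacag

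The first capitals are the androgen receptor hexamer AGAACA, which occurs 2 times, starting at -226 and at 29 from the gene's start, and is present in 19% of all 32851 promoter windows. The CACCC box, CCACCC, also occurs 2 times, at -185 and -181, as overlapping copies in a single run, and 31.5% of windows hold it. Both strands were searched for 12 motifs. The other 10 were not found in this window, among them the GC box GGGCGG, present in 35.7% of windows, the TATA box TATAAA, present in 13.6%, the heat shock element GAANNTTC, present in 7.86%, and the liver X receptor element (a direct repeat known as DR4), present in 0.0152%. A match or its absence describes these letters and not the binding of a factor.

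The values are FPKM, read fragments normalised to transcript length and to the size of the library. The table lists genes the authors had selected, and its name speaks of groups and differential genes. The rule is not stated in the labels, and the depth behind the table is unknown. The p-values and calls below test genes that such a list would have chosen for the same difference. They describe the list and hold no error rate. The values of the table summed to 33503 to 36565 FPKM in the knockout libraries and 31468 to 35576 in the control libraries, which is not a depth. Cdh1, the targeted gene, and the epithelial markers Epcam, Krt8 and Krt18 were not among the 632 genes and were not analysed here, so neither the genotype nor the sort could be checked on them. Every knockout title carries the mark L7 and every control title the mark L2, whose meaning is not stated, so genotype and these marks cannot be told apart.

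Clu had 1346, 1260 and 1648 FPKM in knockout libraries 1, 2 and 3, against 236, 302 and 82.6 FPKM in control libraries 1, 2 and 3. The groups did not overlap, and the lowest knockout library stood well above the highest control library. The mean was 1418 ± 204 FPKM in knockout cells and 207 ± 112 FPKM in control cells (SD, n = 3 each), a ratio of 6.86.

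Apoe had 687, 720 and 742 FPKM in knockout libraries 1, 2 and 3, against 382, 440 and 353 FPKM in control libraries 1, 2 and 3. Here too every knockout library was above every control library, and the libraries of a group lay close together. The mean was 716 ± 27.7 FPKM in knockout cells and 392 ± 44.1 FPKM in control cells (SD, n = 3 each), a ratio of 1.83. All knockout libraries stood above all control libraries for 66.9% of the 632 genes, and limma, a linear model with a pooled prior on the variance, called 65.3% as higher and 7.28% as lower in knockout (Benjamini-Hochberg adjusted p under 0.05). Most genes of this selected list thus separate as Clu and Apoe do. The abundant ones mostly did not: of the 55 genes averaging at least 100 FPKM over all libraries, 16 had a higher mean in knockout. Their median ratio was 0.796, and by ratio Clu was the highest of them and Apoe in place 11.

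The size of the difference placed the genes far apart. On the log2 scale the ratio of means was 2.78 for Clu and 0.87 for Apoe, and the median over the table was 0.94. Measured from that median Clu was still higher in knockout, by 1.84, while Apoe was at -0.07. This distance is smaller than the limma SE of Apoe before centring, 0.12, so on the centred scale Apoe shows no clear direction. The median comes from selected genes and is not a neutral reference, while the mean table sums of the groups had a ratio of 1.03. By ratio Clu was 34th and Apoe 339th of the 632 genes. In absolute FPKM, the difference of 1212 for Clu was the largest rise in group mean in the table and that of 325 for Apoe the fifth. Together they made up 19.5% of the summed rises in mean FPKM over all listed genes, 15.4% from Clu and 4.13% from Apoe.

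**Figure D1:**
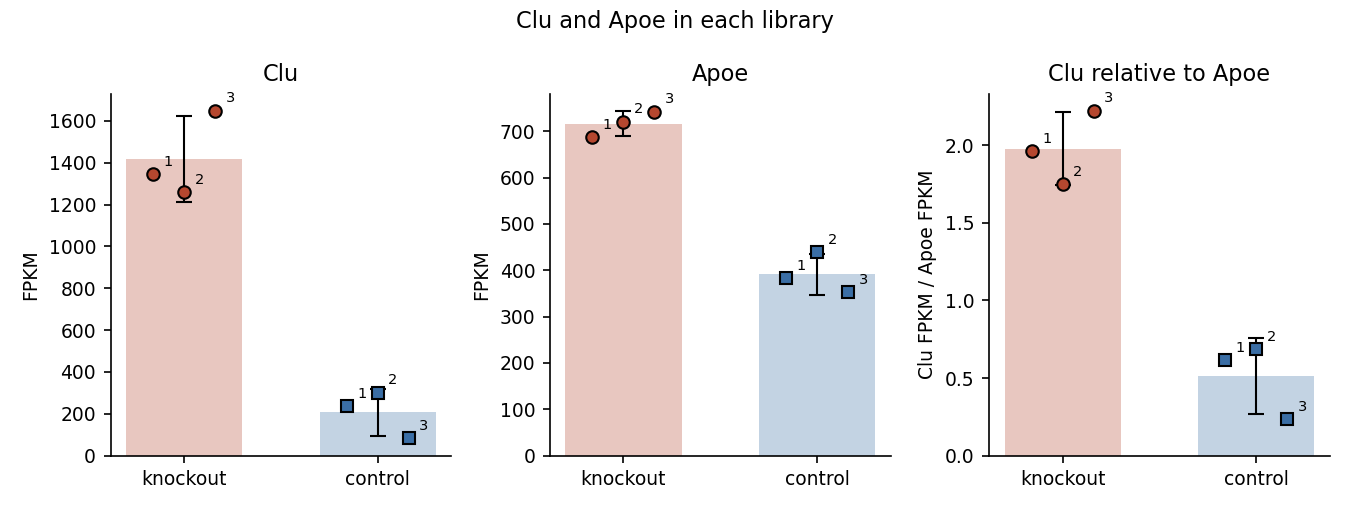
FPKM of Clu and Apoe and the ratio of Clu FPKM to Apoe FPKM, in knockout libraries (circles) and control libraries (squares). Bars are group means, error bars are SD over 3 libraries, and the small numbers are replicates. Control library 3 is the lowest for Clu, at 82.6 FPKM, and the ratio lies above 1 in every knockout library and below 1 in every control library.

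Which of the genes had the higher transcript level per length differed between the groups. Clu stood at 1.96, 1.75 and 2.22 times the Apoe level in knockout libraries 1, 2 and 3, and at 0.616, 0.686 and 0.234 times the Apoe level in control libraries 1, 2 and 3. The mean of this within-library ratio was 1.98 ± 0.24 in knockout cells and 0.512 ± 0.243 in control cells (SD, n = 3 each). It is not affected by the scaling of a library, since both values come from the same one.

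Both genes held higher places in the knockout libraries. Clu was the fourth gene of the table by mean in knockout cells, behind Ly6e, a lymphocyte antigen 6 family surface protein, at 1456 ± 32.2 FPKM, and ahead of Ndufa1, a subunit of mitochondrial complex I, at 1104 ± 13.4 FPKM. In control cells it was in place 28, between Cnpy2 at 211 ± 23.5 FPKM and Glb1l3 at 206 ± 22.2 FPKM. The distance from Ly6e in knockout cells and from each neighbour in control cells was smaller than the SD of Clu, and that from Ndufa1 was larger.

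Apoe was in place 8 in knockout cells, between Usmg5, a subunit of the mitochondrial ATP synthase, at 929 ± 77.6 FPKM and Mgp, matrix Gla protein, an inhibitor of calcification, at 622 ± 8.59 FPKM. In control cells it was in place 15, between Azgp1, a secreted zinc-binding glycoprotein of glandular epithelium, at 395 ± 61.8 FPKM and Cbr2 at 386 ± 7.0 FPKM. Its distance from the neighbours was larger than the SDs in knockout cells and smaller than the larger SD in control cells.

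**Figure D2:**
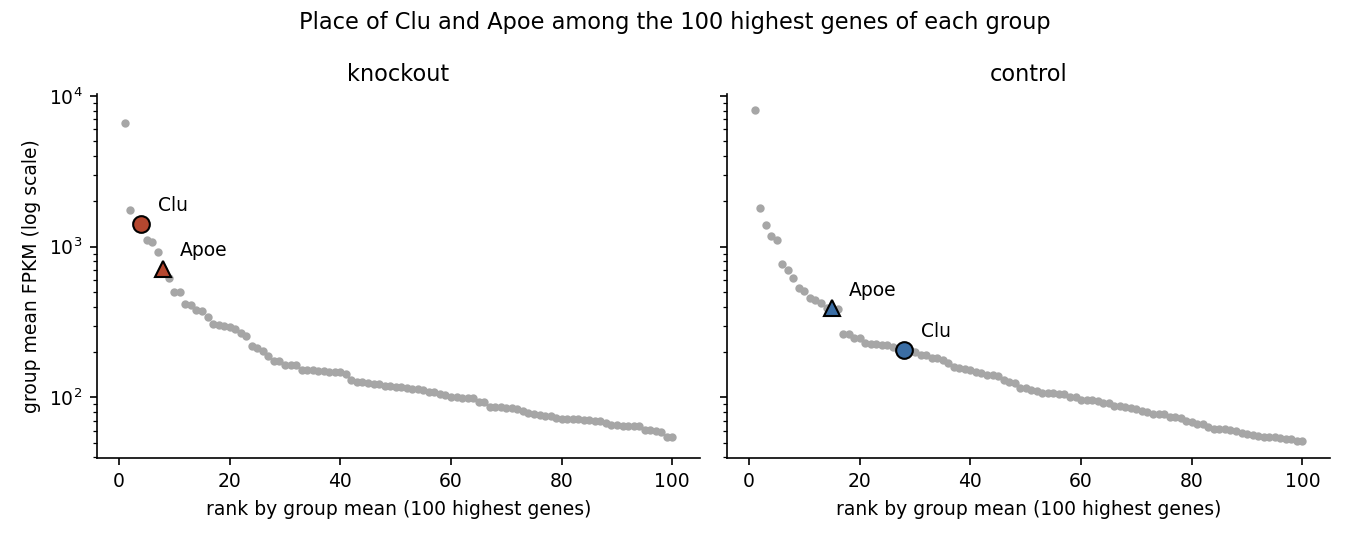
Group mean FPKM (log scale) against rank for the 100 highest genes, in knockout (left) and control libraries (right), with Clu as a circle and Apoe as a triangle. Clu is in place 4 and Apoe in place 8 in knockout cells, and Apoe is in place 15 and Clu in place 28 in control cells.

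Clu varied more between libraries of a group than Apoe did. Its coefficient of variation was 14.4% in knockout cells and 54.4% in control cells, while that of Apoe was 3.87% in knockout and 11.3% in control cells. Among the 55 genes that averaged at least 100 FPKM over all libraries, the median was 8.95% in knockout and 15.7% in control cells, and Clu was the fourth most variable in control and in place 13 in knockout cells. The highest control library had 3.65 times the Clu level of the lowest, and 1.25 times its Apoe level. Control library 3 lay below 0.5 times the lower of the other 2 control libraries for 39 of the 632 genes, and among the 55 abundant genes only for Clu. Leaving out that library put the log2 ratio of Clu at 2.40, and leaving out control library 2 at 3.16, the lowest and highest values when any 1 library was left out.

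**Figure D3:**
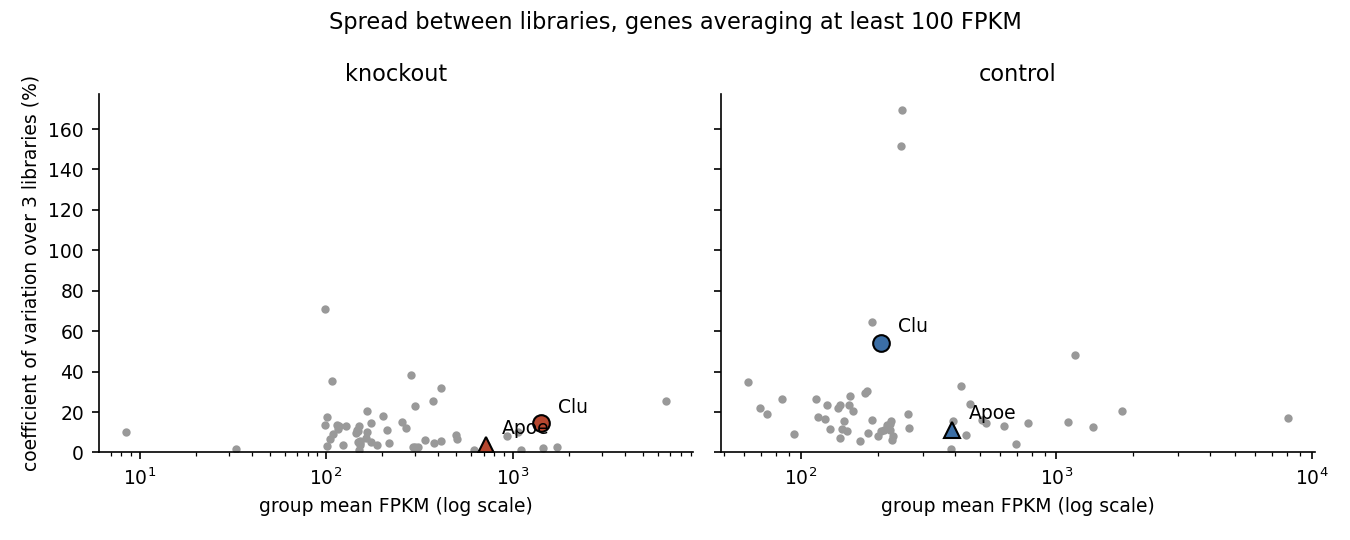
Coefficient of variation over 3 libraries (%) against group mean FPKM (log scale) for the 55 genes averaging at least 100 FPKM, in knockout (left) and control libraries (right). Clu, the circle, is at 14.4% in knockout and 54.4% in control cells, and Apoe, the triangle, at 3.87% in knockout and 11.3% in control cells.

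In a search for similar patterns, predicted genes, with symbols of Gm plus digits or ending in Rik, were left out. The log2(FPKM + 1) values of each gene were centred on their own mean. Among the remaining genes, those most like each member had the smallest root mean square difference from it over the 6 libraries. For Clu these were Ccl8, a monocyte chemokine (0.41), Iglv2, an immunoglobulin lambda segment (0.53), Sprr1a, a cornified envelope precursor (0.54), Serpina3n, an acute phase protease inhibitor (0.56), and Ctse, the protease cathepsin E (0.57). At this pseudocount of 1 all 5 were at least 0.41 away. For Apoe the 5 nearest were Fhl2, a LIM domain cofactor (0.04), H2-DMb2, a class II antigen loading protein (0.04), Ly6e (0.05), Mrc1, the macrophage mannose receptor (0.06), and Anxa2, a membrane-binding annexin (0.06). The pseudocount draws in low genes of larger ratio, and H2-DMb2 had a ratio of 3.58 from a control mean of 0.543 FPKM. With a pseudocount of 0.1, chosen after seeing the data, 2 of the 5 genes nearest Clu and 3 of the 5 nearest Apoe were shared. Ctse, with a control mean of 0.678 FPKM, was then the nearest to Clu, at 0.24.

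The lists below are read beside the whole table, where 65.3% of the genes were called higher with a median ratio of 1.92, and where 66 of the 632 genes were still called higher after centring on the table median. Few other apolipoproteins were in the table. Of 23 on the list 3 were present, 2 rose and 1 was not called, beside 65.3% called higher over the table, and 0 were called higher after centring, where Apod was at a log2 difference of 0.05. Apod, a lipocalin that carries small lipids, had 150, 184 and 161 FPKM in knockout libraries against 73.0, 110 and 70.3 FPKM in control libraries, without overlap. It rose 1.95-fold (limma log2 difference 0.98, SE 0.20, adjusted p = 0.0062). Apol9a, an interferon-inducible member of the apolipoprotein L family, rose 3.00-fold, with 1.75 ± 0.03 FPKM in knockout and 0.583 ± 0.108 FPKM in control cells. Saa3, serum amyloid A3, an acute phase apolipoprotein, had 14.7, 7.37 and 11.7 FPKM in knockout libraries against 50.2, 1.44 and 7.29 FPKM in control libraries. Control library 1 was far above the rest and the groups overlapped, so that the mean was lower in knockout (ratio 0.572, and 2.58 without control library 1) while the mean log2 value was higher, by 0.23 (adjusted p = 0.83). The neighbouring Apoc genes of the Apoe cluster were not among the 632 genes.

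Of 18 receptors and receptor partners of lipoproteins 2 were in the table, and both rose, beside 65.3% over the table, while 1 was called higher after centring and Tyrobp was then at a log2 difference of 0.03. Msr1, a macrophage scavenger receptor for modified lipoproteins, rose 4.41-fold, with 0.710 ± 0.150 FPKM in knockout and 0.161 ± 0.020 FPKM in control cells. Tyrobp, the signalling partner of the lipoprotein-binding receptor TREM2, had 48.8, 53.4 and 50.0 FPKM in knockout libraries against 23.4, 30.0 and 24.6 FPKM in control libraries, and rose 1.95-fold. Neither Lrp1, Lrp2 nor Lrp8, receptors that bind these ligands, was among the 632 genes.

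Of 18 genes of sterol efflux and liver X receptor targets 2 were in the table and rose, beside 65.3% called higher over the table. After centring 0 were called higher. Abcg1, an exporter of cholesterol to high-density lipoprotein, had 1.47, 1.66 and 2.08 FPKM in knockout libraries against 0.764, 0.910 and 0.537 FPKM in control libraries, a 2.35-fold rise without overlap. Arl4c, a small GTPase, rose 1.64-fold, under the table median of 1.92-fold. It lost its call when any library but control library 2 was left out. None of the 18 cholesterol synthesis genes and none of the 17 heat shock genes was listed, and these were not analysed here. Of 13 extracellular chaperones other than Clu only haptoglobin (Hp), which binds free haemoglobin, was listed. It had 12.9, 4.71 and 5.09 FPKM in knockout libraries against 2.36, 2.02 and 1.27 FPKM in control libraries, and rose 4.02-fold (adjusted p = 0.012 by limma), with knockout library 1 far above the others of its group. Without that library the ratio was 2.60, and after centring the call was lost.

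Complement genes, whose terminal complex clusterin inhibits, were also looked up. Of 22 complement components and regulators 10 were in the table and all 10 rose, by 1.88-fold to 6.30-fold with a median of 2.43-fold, beside 65.3% called higher and a median of 1.92-fold over the whole table. After centring 2 of the 10 were called higher. C7, a component of the terminal complex, had 18.6, 20.5 and 21.2 FPKM in knockout libraries against 10.2, 11.4 and 6.90 FPKM in control libraries, and rose 2.12-fold (limma log2 difference 1.03, SE 0.20, adjusted p = 0.0050). C3, the central component, rose 2.63-fold to 36.2 ± 5.61 FPKM in knockout, against 13.8 ± 2.52 FPKM in control cells. Serping1, the C1 inhibitor, rose 1.88-fold, and after centring it was slightly below 0. The C1q subunit genes C1qa, C1qb and C1qc, made mainly by macrophages, rose 2.13-fold, 2.11-fold and 2.24-fold.

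Markers of macrophages and of other non-epithelial cell types that were in the table rose as well. Of 20 macrophage and myeloid markers, which share the C1q genes with the complement list, 14 were present. All 14 rose, beside 65.3% over the table, the median being 2.11-fold, while 1 of the 14 was called higher after centring. Of the 14, 13 had a larger ratio than Apoe, beside 338 of the 632 genes over the table. The summed level of the 14 was 699 to 721 FPKM in knockout libraries and 304 to 396 FPKM in control libraries. Cd74 alone had a mean of 300 FPKM in knockout and 140 FPKM in control cells, so it weighs most in this sum. In control libraries 12 of the 14 were highest in library 2, as were Apoe and Clu, and so were 329 of the 632 genes. Apoe stood at 1.01 ± 0.05 times this sum in knockout cells and at 1.16 ± 0.09 times in control cells, and Clu at 2.0 ± 0.32 times in knockout and 0.598 ± 0.295 times in control cells (SD, n = 3 each). Set against the summed fibroblast markers, Apoe stood at 4.74 ± 0.24 times in knockout and 4.08 ± 0.30 times in control cells, and against the summed basal markers at 3.99 ± 0.51 times in knockout and 4.16 ± 0.84 times in control cells. The ratio of these group means was thus, for Apoe, 0.873 for the macrophage sum, 1.16 for the fibroblast sum and 0.960 for the basal sum. For Clu it was 3.34, 4.43 and 3.67 in the same order. Krt15 alone had a mean of 112 FPKM in knockout and 56.2 FPKM in control cells, within basal sums averaging 181 and 96.0 FPKM. The part of these cells in the Apoe and Clu levels was not tested. In bulk samples a change in the number of cells of a type and a change in RNA per cell cannot be told apart.

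Lipid-associated macrophages, which accumulate in lipid-rich and injured tissue and express Apoe, had 4 of 17 listed genes, and all 4 rose, beside 65.3% over the table, while 1 was called higher after centring. They were Spp1, osteopontin, 15.6-fold, Lgals3, galectin 3, 2.56-fold, the integrin gene Itgax, 2.25-fold, and Tyrobp. Spp1 had 4.81 ± 1.67 FPKM in knockout and 0.308 ± 0.093 FPKM in control cells. Its fold thus rests on a low control level, and its limma log2 difference, with the pseudocount of 1, was 2.12. Itgax had 1.31 ± 0.10 FPKM in knockout and 0.584 ± 0.187 FPKM in control cells. Trem2 and Gpnmb, defining genes of lipid-associated macrophages, were not among the 632.

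Of 14 fibroblast markers 5 were present, and every one rose (median 1.55-fold, under the 1.92-fold of the table), beside 65.3% called higher over the table. After centring 0 were called higher, and without knockout library 1 the call of Col1a1 was lost. Their sum was 148 to 154 FPKM in knockout and 86.6 to 111 FPKM in control libraries. A larger ratio than that of Apoe was seen for 1 of the 5, beside 338 of the 632 genes. Of 14 lymphoid markers 5 were listed, all of the B cell lineage, and all 5 rose by at least 3.14-fold, beside 65.3% called higher over the table, while 2 were called higher after centring. Their sum was 391 to 576 FPKM in knockout against 105 to 173 FPKM in control libraries. None of the 8 smooth muscle, 8 endothelial or 6 nerve and glia markers was listed. The part of these cells in the members' levels was likewise not tested.

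Epithelial genes were also measured beside the members. Of 10 basal markers 5 were present, and every one rose (median 1.997-fold, near the 1.92-fold of the table), beside 65.3% called higher over the table, while 1 was called higher after centring. Their sum was 168 to 202 FPKM in knockout and 85.4 to 115 FPKM in control libraries, and 3 of the 5 had a larger ratio than Apoe. Of 12 luminal secretory markers Azgp1 alone was listed, and it fell (ratio 0.738). Its call was lost without control library 1 or any 1 knockout library. Of 15 genes linked to the regressed gland or to proximal luminal cells 7 were listed, of which 6 rose and 1 was not called, beside 65.3% called higher over the table, and 3 were called higher after centring. Ly6a (Sca-1), a progenitor surface marker, had 254, 216 and 292 FPKM in knockout libraries against 73.3, 88.4 and 60.1 FPKM in control libraries and rose 3.44-fold (limma log2 difference 1.77, SE 0.19, adjusted p = 0.0013). Mgp rose 2.74-fold, Psca, prostate stem cell antigen, 2.35-fold and Wfdc2, a whey acidic protein family member, 1.97-fold. The call of Wfdc2 was lost after centring and without knockout library 1 or 2. The claudin gene Cldn10 had 14.0 ± 2.85 FPKM in knockout and 19.4 ± 5.43 FPKM in control cells and was not called (adjusted p = 0.15 by limma). No listed gene of the basal, luminal or regressed-gland lists had a ratio as large as that of Clu.

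**Figure D4:**
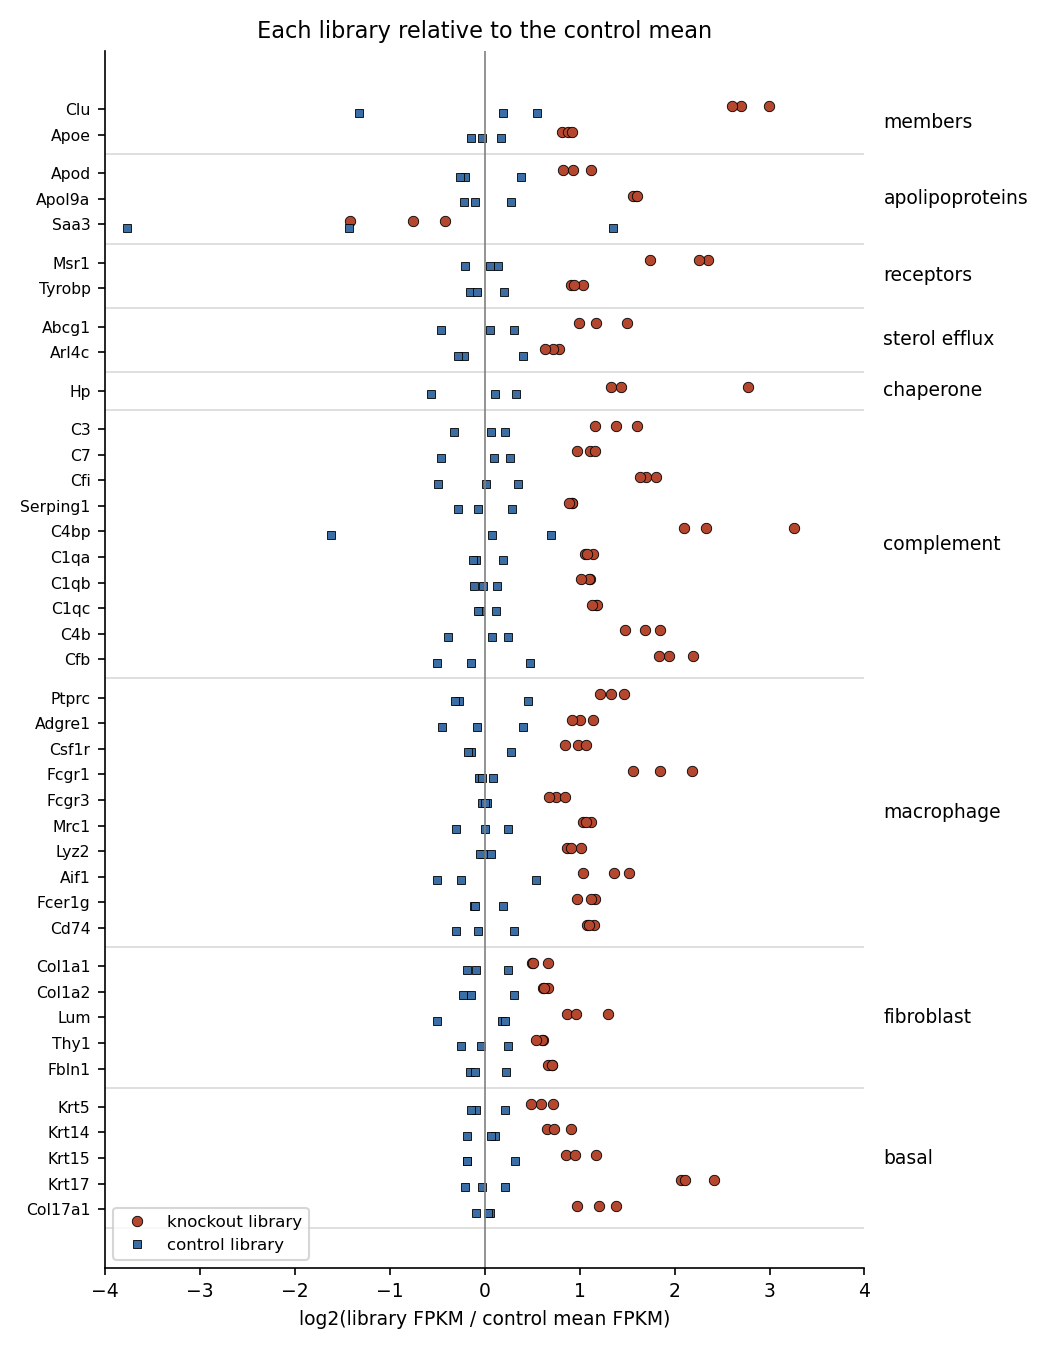
log2 of each library's FPKM over the control mean for Clu, Apoe and the listed genes of the apolipoprotein, receptor, sterol efflux, chaperone, complement, macrophage, fibroblast and basal lists, with knockout libraries as circles and control libraries as squares; the C1q genes and Tyrobp are drawn once. All knockout libraries lie above the control libraries for every gene drawn except Saa3, where control library 1 is the highest.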

How the data were processed

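RNA from sorted prostate epithelial cells was sequenced by Illumina, and the labels name both a bulk kit and a droplet kit. Cufflinks 2.2.1, Cuffdiff, TopHat2 2.0.14 and the build GRCm38 appear, with no roles, in the submitters' processing notes. The authors deposited 1 table of FPKM values for 632 selected genes. Its header names no unit, and FPKM was inferred from these tools and the values. Depth is unknown, so no interval that needs it is given, and FPKM shares a library's total among genes.

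Groups follow the genotype label. limma 3.58.1 (R 4.3.3, variance prior dependent on the mean) was fitted to log2(FPKM + 1) over all 632 genes, with Benjamini-Hochberg adjustment and a threshold of 0.05, and the step was tested on simulated data. The pseudocount of 1 understates changes of low genes. Folds are ratios of group means without it. Python 3.11.15 was used for the rest.

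The members and the 9 pathway and 9 marker lists were chosen with earlier results of these data known. The text names Clu and Apoe, the 5 genes most like each (predicted genes left out), their neighbours in rank and up to 6 listed genes of each pathway list, those of highest mean. All 632 identifiers matched GENCODE M21, which gave positions. Alternatives were another pseudocount, a minimum level, another prior, a threshold of 0.01, centring on the table median, scaling to one table total and leaving out each library. Some listed genes are counted but not reported by name here.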

Additional observations from a re-analysis of the deposited data

How the results depend on the processing

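Clu stayed higher in knockout under every alternative run, with a log2 ratio of 2.40 to 3.16 when 1 library was left out, and 1.84 after centring on the median log2 ratio of the table (0.94). Apoe was at 0.80 to 0.96 with 1 library left out and at -0.069 after centring, a change of sign smaller than its limma SE of 0.12. The log2 ratio of the Clu to Apoe ratio was 1.60 to 2.22 with 1 library left out. Scaling to one table total or another pseudocount moved neither gene by more than its replicate SD.

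Over the table limma called 413 genes as higher and 46 as lower. With 1 library left out these were 365 to 410 and 20 to 79, with the highest number of falls without control replicate 2. After centring they were 66 and 163, and rises thus made up a minority of the calls. Without centring, 285 rises and 8 falls remained called by limma at an adjusted p under 0.01. Centring left 0 calls as higher for the apolipoprotein, sterol efflux, extracellular chaperone and fibroblast lists, 1 each for the receptor, lipid-associated macrophage, macrophage and basal lists, 2 each for the complement and lymphoid lists and 3 for the regressed-gland list. A threshold of 0.01 left 1 sterol efflux gene, 0 chaperones, 2 fibroblast genes and 3 regressed-gland genes. A minimum mean of 1 FPKM left 1 receptor and 3 lymphoid genes, since the others were not tested. The sterol efflux list had 1 to 2 calls with 1 library left out.

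Single genes that turned negative after centring were Thy1 (-0.33), Anxa2 (-0.14), Arl4c (-0.16), Saa3 (-0.60), Fbln1 (-0.22), Col1a2 (-0.28), Krt14 (-0.16), Serping1 (-0.013), Col1a1 (-0.35), Fcgr3 (-0.16), Bcam (-0.31), Krt5 (-0.32), Ly6e (-0.019), Scara5 (-0.25) and Lyz2 (-0.011). Such a value says that the ratio was under that of the median listed gene. Saa3 ranged from -0.80 without control replicate 2 to 1.40 without control replicate 1. The cause of these moves other than the centring itself was not tested. No paired analysis was run, because the titles share no replicate numbers between the groups and do not show which animals share a litter. A pairing of littermates, if there was any, is ignored by the fit.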

Other observations

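Genes near the members on their chromosomes were looked up after the other values had been seen. Of 14 other protein-coding genes annotated within 500 kb of Clu, 2 were in the table, the scavenger receptor class A genes Scara3 and Scara5. Scara3 had 7.49, 7.94 and 6.97 FPKM in knockout libraries against 3.26, 4.26 and 2.23 FPKM in control libraries and rose 2.30-fold (limma adjusted p = 0.0060). Scara5, a ferritin receptor, had 7.62 ± 0.66 FPKM in knockout and 5.04 ± 1.52 FPKM in control cells and was not called (limma adjusted p = 0.054). Of 45 such genes within 500 kb of Apoe, 3 were in the table. Bcl3, an IkB family regulator of NF-kB, rose 2.79-fold, with 8.04 ± 0.34 FPKM in knockout and 2.88 ± 1.09 FPKM in control cells. Bcam, a laminin-binding adhesion molecule, rose 1.53-fold, with 25.4 ± 0.20 FPKM in knockout and 16.6 ± 1.19 FPKM in control cells. The reticulon gene Rtn2 fell (ratio 0.674), with 7.08 ± 0.45 FPKM in knockout and 10.5 ± 1.24 FPKM in control cells, and lost its call when any 1 knockout library was left out.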
